A study of Mus musculus with 24 samples.

Results

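The 10 genes described here, Trem2, Tyrobp, Apoe, Cst7, Itgax, Clec7a, Lpl, Spp1, Axl and Gpnmb, are known as disease-associated microglia genes. They were chosen by symbol from the 49568 gene symbols counted in every library, and all 10 were among the 20187 genes tested. The libraries hold poly(A) RNA from the hippocampus of 24 male mice, 1 mouse each, on a C57-Bl/6J background and 21 to 23 months of age when the tissue was collected. The mice were wild type (WT) or homozygous for a knock-in mutation of a single residue that leaves MSK1 without kinase activity (MSK1 KD). The genotypes were bred as separate lines with repeated backcrossing, so line and genotype cannot be told apart. Mice of each genotype lived in standard housing or, from 18 months of age, in an enriched environment. This gave 4 groups of 6 mice. WT mice in standard housing are called WTSH and those under enrichment WTEE, and MSK1 KD mice are likewise called KDSH and KDEE. The mutation is in every cell of the body, and since it exchanges a residue and leaves the transcript in place, counts per gene do not check the genotype labels. The study left WTSH samples 4 and 7 and KDSH sample 6 out of its comparisons. It gave low correlation within their groups as a reason, and ribosomal RNA contamination in samples 4 and 7. The same 21 libraries were used here, with 4 WTSH, 6 WTEE, 5 KDSH and 6 KDEE mice, and the libraries left out are given apart.

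Microglia are the resident macrophages of the brain. In mouse models of Alzheimer's disease, in ageing and near damaged myelin, some of them take on a state in which the homeostatic genes P2ry12, Tmem119 and Cx3cr1 decline and a set of genes for phagocytosis, lysosomes and lipid handling rises. The receptor TREM2, which binds lipids and lipoproteins, signals through the adaptor TYROBP and is needed for the full form of this state. Several of the genes are not restricted to microglia. Apoe is made chiefly by astrocytes, Axl and Lpl are also found outside microglia, and Spp1 is also made by other cells of brain and meninges. In RNA from whole hippocampus, more cells of a type and more RNA per cell cannot be told apart.

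Over the 21 libraries, 27410239 to 71907130 read pairs fell on genes, with a median of 47549989. The member with the fewest reads behind it, Cst7, had 23 to 141 raw counts a library. Defining microglial transcripts were present in all libraries, the summed level of 12 pan-microglial markers running from 13857 to 31498 normalized counts. Of the 21 libraries, 5 (WTSH 19, WTEE 10 and 13, KDEE 12 and 14) held 112110 to 408367 normalized counts of Ttr, the main product of choroid plexus epithelium, against 215 to 3945 in the other 16. The members' fold changes and correlations without these libraries are given after the results in all 21.

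Per kilobase of exon, the median level over the 21 libraries, in CPM (library-scaled counts) per kilobase, was highest for Apoe at 921, then Tyrobp at 29.9 and Axl at 12.2. The lowest library of each of these was above the highest library of the next gene in the order, but Spp1 in WTEE 10, at 15.5, was above every library of Axl. Below them came Trem2 at 4.74, Spp1 at 4.04, Lpl at 2.87, Cst7 at 1.65, Gpnmb at 1.59, Clec7a at 0.959 and Itgax at 0.399, and each of these overlapped the next in the order. The order depends on the lengths used, which are all annotated exon bases of a gene, such as 667 for Tyrobp and 4946 for Trem2. The raw counts of Trem2 (786 to 2161) and Tyrobp (609 to 2066) overlapped. Exons of Spp1 shared 309 bases (18.75% of their length) with the gene model Gm42793, and the effect of this on its counts was not tested. No other member shared exon bases with another gene. These overlaps and the exon lengths are from GENCODE M21, while the authors counted reads with another annotation of GRCm38. Clec7a is listed as a polymorphic pseudogene in the GENCODE M21 annotation, although it encodes the receptor dectin-1.

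The members differed in how far mice of a group lay apart. The SD of log2 CPM within groups was 0.09 for Axl, smaller than in most genes (percentile 8.93 of the 20187 tested). It was 0.16 for Lpl, 0.22 for Apoe, 0.25 for Trem2 and Gpnmb and 0.28 for Tyrobp, around the median of 0.21 over all genes tested. It was 0.42 for Itgax, 0.51 for Clec7a, 0.56 for Cst7 and 0.57 for Spp1, the last at percentile 90.4.

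Promoter sequences of 8 members were taken from RefSeq on GRCm38.p6 (none was at hand for Tyrobp or Lpl), each from 250 bases before to 50 bases after a transcription start. MSK1 acts on CREB, whose full site, the CRE TGACGTCA, was in no window of these 8 genes and in 1.79% of all 32851 windows. The short site TGACG was in the Trem2 window, against 20.8% of all windows, and the PU.1 core GAGGAAGT in that of Spp1, against 3.20%. The E-box CACGTG was in none of the 8, against 7.15%. The AP-1 site TGANTCA, searched like the others on both strands, was in 4 of the 12 windows of these genes (some have several starts), 1 each of Trem2, Itgax, Cst7 and Gpnmb, against 7.81% of all windows. These 4 are printed because they share that motif and include members of both covarying sets described below; each runs from 200 bases before the start site, 5′ to 3′ on the plus strand, with motif matches in capitals. A match is a description of letters, not of a bound site.
Trem2, chr17:48346201-48346420: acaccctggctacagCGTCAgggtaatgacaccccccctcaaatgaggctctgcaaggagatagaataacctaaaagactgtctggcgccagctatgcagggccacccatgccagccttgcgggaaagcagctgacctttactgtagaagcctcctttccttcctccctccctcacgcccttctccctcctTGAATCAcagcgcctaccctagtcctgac
Itgax, chr7:128129350-128129569: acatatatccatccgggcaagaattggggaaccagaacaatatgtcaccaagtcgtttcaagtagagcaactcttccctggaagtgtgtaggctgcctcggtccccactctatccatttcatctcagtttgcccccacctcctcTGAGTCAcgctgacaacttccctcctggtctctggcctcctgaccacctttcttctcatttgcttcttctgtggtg
Cst7, chr2:150570215-150570434: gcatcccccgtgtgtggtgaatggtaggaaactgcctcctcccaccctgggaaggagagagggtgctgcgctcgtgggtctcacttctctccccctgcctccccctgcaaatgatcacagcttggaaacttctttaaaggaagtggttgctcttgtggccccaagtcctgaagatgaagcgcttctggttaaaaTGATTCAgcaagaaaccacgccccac
Gpnmb, chr6:49036318-49036537: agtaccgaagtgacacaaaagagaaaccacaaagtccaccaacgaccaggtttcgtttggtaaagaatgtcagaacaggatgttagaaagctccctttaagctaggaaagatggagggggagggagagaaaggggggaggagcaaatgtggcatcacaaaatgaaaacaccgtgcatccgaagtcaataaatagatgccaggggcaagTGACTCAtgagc
The AP-1 match began at 9 bases before the start site in Trem2, at 56 before it in Itgax, at 6 before it in Cst7 and at 8 after it in Gpnmb. The second match in Trem2 is the short site TGACG, read on the minus strand.

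The first question was whether enrichment in old age altered these genes, in WT mice, in MSK1 KD mice and over both. After enrichment 9 of the 10 genes were higher on average in each genotype, with Lpl the exception, but no member passed the test in any comparison. The test was edgeR's quasi-likelihood test over all genes, where a gene is called if its adjusted p is under 0.05 and its log2 fold change is beyond 0.38 in either direction. The same call was met by 0% of the genes tested in WTEE against WTSH and in KDEE against KDSH, and by 0.00495% with housing averaged over the genotypes, which is 1 gene, the immunoglobulin gene Ighm. Without adjustment 1322, 2345 and 3816 genes had a p under 0.05 in these comparisons, and DESeq2 called 2, 14 and 41, none of them a member. The median log2 fold change of the members was 0.38 in WTEE against WTSH, 0.25 in KDEE against KDSH and 0.32 over both genotypes, against medians of 0.0065, 0.0016 and 0.0071 over all genes tested.

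At an unadjusted p under 0.05, 5 members were higher in WTEE than in WTSH (Trem2, Tyrobp, Cst7, Spp1 and Gpnmb), where 3.95% of all genes tested were. In KDEE against KDSH there were 2 such members, Axl and Apoe, where the background was 5.64%. Over both genotypes there were 7, all but Clec7a, Itgax and Lpl, where the background was 9.77%. No member was lower at that threshold. The adjusted p of the members over both genotypes lay between 0.211 and 0.368 (edgeR), so none of these differences is a call.

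**Figure D1:**
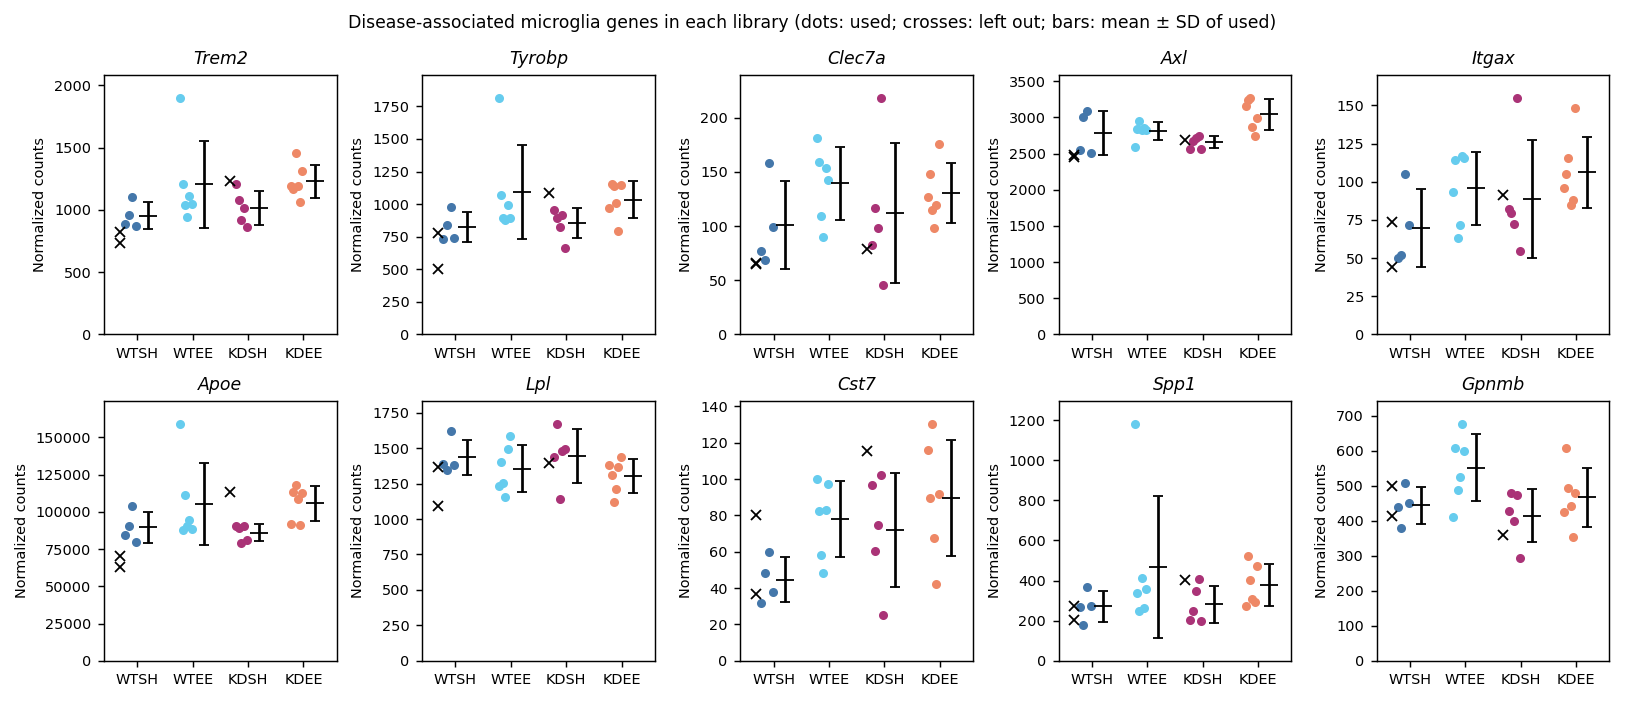
Normalized counts (vertical axes, each from 0) of the 10 genes in each library of the 4 groups. Dots are the 21 libraries used, crosses the 3 left out, and bars the mean ± SD of those used; the WTEE library with 1896 counts of Trem2 is also the highest for Tyrobp, Apoe and Spp1.

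Among the receptors, Trem2 (chr17:48346401-48354147 on GRCm38, plus strand) stood at 868, 883, 956 and 1104 normalized counts in the WTSH mice. In WTEE its lowest value was 941, its median 1076 and its highest 1896. All 6 WTEE mice were above the WTSH median and 3 were above the highest WTSH mouse, the highest of them, WTEE 10, standing far from the rest. The KDSH mice had 859, 918, 1013, 1078 and 1209.5 counts, and the KDEE mice ran from 1065 to 1453 with a median of 1192. The groups overlapped in both genotypes. The log2 fold change of Trem2 was 0.35 ± 0.15 (SE) in WTEE against WTSH, 0.27 ± 0.14 in KDEE against KDSH and 0.31 ± 0.11 over both (adjusted p = 0.211, edgeR). Without WTEE 10 the WT value was 0.16.

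Tyrobp (chr7:30413760-30417585, plus strand), the adaptor through which TREM2 signals, followed it closely. The WTSH mice held 731, 741, 843 and 979.9 counts, and the WTEE mice 878 to 1813 with a median of 945. In KDSH the values were 666, 825, 895, 918 and 956, and in KDEE they ran from 792 to 1154 with a median of 1074.5. In MSK1 KD mice 5 of 6 enriched animals were above every standard-housed one, and KDEE 20, the lowest, fell among them. The log2 fold change was 0.41 ± 0.18 in WT mice, which became 0.20 without WTEE 10, and over both genotypes it was 0.34 ± 0.12 (adjusted p = 0.214, edgeR).

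Clec7a (chr6:129461591-129472779, minus strand), the beta-glucan receptor dectin-1, and Itgax (chr7:128129547-128150657, plus strand), the integrin alpha chain CD11c, were low and variable. Clec7a stood at 68.7, 76.9, 99.4 and 158 counts in WTSH and at 89.9 to 182 in WTEE with a median of 148. It was at 45.9, 82.1, 98.3, 116 and 218 in KDSH, and at 98.2 to 175 in KDEE with a median of 123. The highest value of all 21 was thus in a standard-housed MSK1 KD mouse, KDSH 18. Itgax was at 50.3, 52.0, 71.6 and 105 counts in WTSH and at 63.0 to 117 in WTEE, with a median of 104. It was at 54.7, 72.0, 79.7, 82.1 and 155 in KDSH, again highest in KDSH 18, and at 84.9 to 148 in KDEE with a median of 100.3. Over both genotypes the log2 fold change was 0.33 ± 0.21 for Clec7a (adjusted p = 0.368, edgeR) and 0.35 ± 0.18 for Itgax (adjusted p = 0.291), and neither passed. In MSK1 KD mice both rested on single animals, Clec7a going from 0.20 to 0.59 without KDSH 18 and Itgax from 0.24 to 0.54, while without KDSH 24 Itgax was at 0.11 and Clec7a near 0.

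Axl (chr7:25757273-25788705, minus strand), a receptor tyrosine kinase that recognises phosphatidylserine through bridging ligands, was the steadiest of the 10. Its values were 2505, 2551, 3003 and 3094 in WTSH and 2587 to 2953 in WTEE, with a median of 2834, so that no WTEE mouse exceeded the highest WTSH mouse. In KDSH it stood at 2566, 2567, 2678, 2721 and 2736, and in KDEE at 2745 to 3266 with a median of 3078. Every KDEE mouse was above every KDSH mouse, the closest pair being 2745 in KDEE and 2736 in KDSH. The log2 fold change was 0.02 ± 0.06 in WT mice and 0.19 ± 0.06 in MSK1 KD mice (adjusted p = 0.338, edgeR), the smallest unadjusted p of any member at 0.00297 in that comparison. The effect of enrichment in WT minus that in MSK1 KD mice was -0.17 ± 0.08 (unadjusted p = 0.0497, adjusted p = 0.999875, edgeR), so the genotypes were not shown to differ in it.

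Of the genes for lipid handling, Apoe (chr7:19696109-19699188, minus strand) encodes the chief lipoprotein of the brain and a ligand of TREM2. It had 79696, 84528, 90338 and 104012 counts in WTSH and 87596 to 158727 in WTEE, with a median of 92638. In KDSH it had 78878, 81134, 89481, 90453 and 90471 counts, and in KDEE 90938 to 118272 with a median of 110542. All 6 KDEE mice lay above all 5 KDSH mice, although the lowest 2 of them, at 90938 and 91669, only just. KDSH 6, which was left out, had 113049 counts, within the KDEE range. With all 24 libraries the log2 fold change in MSK1 KD mice was 0.22 ± 0.14 (unadjusted p = 0.126, edgeR). In the libraries used, Axl and Apoe were the only members whose KDEE and KDSH groups did not overlap, 2 of 10. There every KDEE library was above every KDSH library for 1.08% of all genes tested. In WT mice there was no such member, the background being 0.495%. The log2 fold change of Apoe was 0.24 ± 0.14 in WT mice, 0.29 ± 0.13 in MSK1 KD mice and 0.27 ± 0.10 over both (adjusted p = 0.219, edgeR). Without WTEE 10 the WT value of Apoe was 0.078.

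Lpl (chr8:68880491-68907448, plus strand), lipoprotein lipase, which releases fatty acids from triglycerides, was the member that went the other way. It had 1346, 1385, 1389 and 1618 counts in WTSH and 1154 to 1588 in WTEE, with a median of 1331. It had 1139, 1439.6, 1478, 1491 and 1668 counts in KDSH and 1122 to 1439 in KDEE, with a median of 1339. All 6 KDEE mice were below the KDSH median, but the groups overlapped. Its log2 fold change over both genotypes was -0.12 ± 0.07 (adjusted p = 0.336, edgeR).

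Among the secreted and lysosomal products, Cst7 (chr2:150570415-150578944, plus strand) encodes cystatin F, an inhibitor of lysosomal cysteine proteases. It was at 31.6, 38.1, 48.3 and 59.96 counts in WTSH and at 48.2 to 100.02 in WTEE with a median of 82.9, 4 of the 6 WTEE mice being above every WTSH mouse. In KDSH it was at 25.1, 60.3, 75.0, 97.0 and 102 counts, and in KDEE at 42.2 to 130.04 with a median of 90.6. Its log2 fold change was 0.81 ± 0.33 in WT mice, the largest of any member there (95% interval 0.12 to 1.51, adjusted p = 0.651, edgeR). It was 0.30 ± 0.30 in MSK1 KD mice and 0.56 ± 0.22 over both (adjusted p = 0.232). The MSK1 KD value was 0.09 without KDSH 24. The difference between the genotypes' effects was 0.51 ± 0.45 (adjusted p = 0.999875).

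Spp1 (chr5:104435118-104441050, plus strand), osteopontin, a secreted phosphoprotein and integrin ligand, had the largest fold over both genotypes. It had 176, 266, 275 and 368 counts in WTSH and 248 to 1178 in WTEE, with a median of 349. Only WTEE 10 passed 413 counts in that group. In KDSH the values were 197, 202, 249, 349 and 408, and in KDEE they were 273 to 524 with a median of 355. Its log2 fold change over both genotypes was 0.60 ± 0.25 (adjusted p = 0.240, edgeR), and it was 0.37 ± 0.16 without the 5 Ttr-rich libraries, of which WTEE 10 is one (adjusted p = 0.314). In WT mice alone it went from 0.79 to 0.26 without WTEE 10.

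Gpnmb (chr6:49036546-49070929, plus strand), a membrane glycoprotein linked to lysosomal stress, had 379, 439, 449.8 and 507 counts in WTSH and 409.7 to 675 in WTEE, with a median of 563. In this gene WTEE 10 was the lowest of its group. The KDSH mice had 294, 398, 427, 475 and 479 counts and the KDEE mice 354 to 608, with a median of 460.3. The log2 fold change was 0.32 ± 0.15 in WT mice, 0.16 ± 0.14 in MSK1 KD mice and 0.24 ± 0.10 over both (adjusted p = 0.244, edgeR). The MSK1 KD value was 0.06 without KDSH 24.

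**Figure D2:**
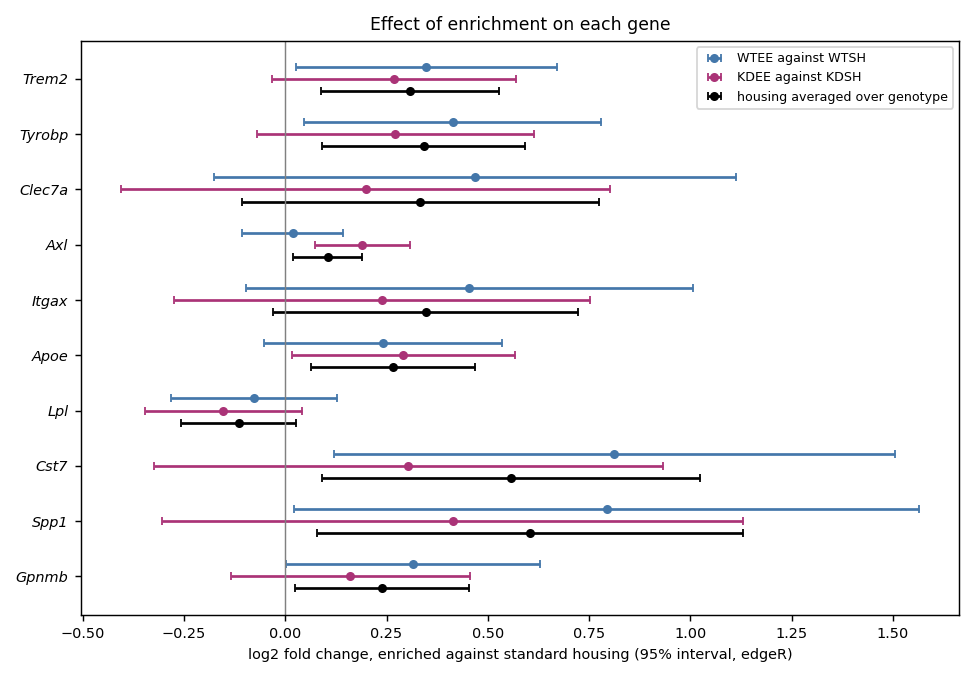
Log2 fold change (horizontal axis) of each gene with enrichment in WT mice, in MSK1 KD mice and averaged over both, with 95% intervals from edgeR. All points but those of Lpl lie above 0, and over both genotypes the intervals of 7 genes leave out 0 before adjustment over all genes.

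Between the genotypes no member was called by edgeR in KDSH against WTSH, KDEE against WTEE or genotype averaged over housing, where 0% of all genes tested were called, and none had an unadjusted p under 0.05. Over all genes 202, 1007 and 383 had one in these comparisons, and DESeq2, with no member among its calls either, called 0, 118 and 0. The largest difference was in Cst7, with a log2 fold change of 0.70 ± 0.35 in KDSH against WTSH (unadjusted p = 0.0553, adjusted p = 0.999952, edgeR). The 4 WTSH values of Cst7, from 31.6 to 59.96, overlapped the KDSH values, of which KDSH 24 at 25.1 was the lowest of all. The WTSH libraries left out stood at 36.8 (sample 4) and 80.4 (sample 7). In the interaction edgeR called 0% of genes (659 had an unadjusted p under 0.05, and DESeq2 called 20), and Axl was the sole member at an unadjusted p under 0.05.

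The wider list of disease-associated microglia genes had like values. Of 30 further genes, 28 were higher over both genotypes in enriched mice, with a median log2 fold change of 0.28, and 18 were so at an unadjusted p under 0.05, against the background of 9.77%; none was called. The lowest p belonged to Capg, an actin-capping protein, at 0.52 ± 0.13, and Cd9, a tetraspanin, at 0.41 ± 0.10 (both adjusted p = 0.179, edgeR). Genes that carry the TREM2 signal onward and the factors that control them showed less. Of 23 tested, 14 were higher, the median was 0.03, and 3 passed an unadjusted p of 0.05, among them Tfeb, a lysosomal transcription factor, at 0.22 ± 0.09, and Spi1, which encodes PU.1, at 0.23 ± 0.09. Of 12 homeostatic microglia genes 11 were higher with a median of 0.09, and 1, Olfml3, passed that threshold. Of 12 pan-microglial genes 11 were higher with a median of 0.32, close to that of the 10 members, and 7 passed it, led by Ctss at 0.31 ± 0.09 and Ly86 at 0.36 ± 0.11.

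Markers of other cells were also higher in enriched mice, although none was called (lowest adjusted p 0.186 for myelin, 0.174 for blood and 0.232 for choroid plexus, edgeR). All 8 myelin genes were higher in enriched mice (median log2 fold change 0.25), 7 of them at an unadjusted p under 0.05. The summed level of the list was 261913 to 392423 in WTSH, 289309 to 357268 in WTEE, 247453 to 356421 in KDSH and 297501 to 376133 in KDEE. With the mean of the myelin list as a covariate, none of the 7 members kept an unadjusted p under 0.05, Lpl gained one at -0.17 ± 0.08, Itgax went from 0.35 to 0.01, and Clec7a from 0.33 to -0.07. All 5 hemoglobin and red cell genes were higher as well, with a median of 1.46, and their sum was 2553 to 3244 in WTSH, 2526 to 17549 in WTEE, 1660 to 3472 in KDSH and 3260 to 10913 in KDEE. With the blood list as a covariate no member had an unadjusted p under 0.05 (Trem2 0.27 ± 0.14, Tyrobp 0.27 ± 0.16). Of the other lists, 8 of 10 choroid plexus, 3 of 9 astrocyte, 3 of 6 endothelial, 3 of 8 monocyte and dendritic cell and 1 of 8 border macrophage genes were higher at that threshold, and none of the 8 neuronal, 8 meningeal fibroblast, 5 oligodendrocyte precursor or 5 structural RNA genes was; 1 precursor and 1 monocyte or dendritic cell gene were lower. With Ttr as a covariate 1 member had an unadjusted p under 0.05, Gpnmb at 0.24 ± 0.11. With the homeostatic microglia list 2 had one, Trem2 and Tyrobp, each at 0.19. Genes at that threshold became fewer over all 20187 tested as well. Without a covariate 1973 were higher and 1843 lower, and with myelin 242 and 260. The numbers were 795 and 986 with blood, 551 and 716 with Ttr and 820 and 1030 with the homeostatic list. Leaving out the 5 Ttr-rich libraries gave 8 members at that threshold, with Trem2 at 0.23 ± 0.07, Itgax at 0.52 ± 0.19 and Apoe at 0.15 ± 0.05. In that fit 1405 of 20136 genes were higher and 1539 lower. Within WT mice alone the values without those libraries were 0.24 for Trem2, 0.30 for Tyrobp, 0.08 for Apoe, 0.51 for Spp1, 0.97 for Cst7, 0.73 for Clec7a, 0.84 for Itgax, 0.50 for Gpnmb, 0.07 for Axl and 0.03 for Lpl. Within MSK1 KD mice they were 0.22 for Trem2, 0.19 for Tyrobp, 0.22 for Apoe, 0.23 for Spp1, 0.12 for Cst7, 0.18 for Clec7a, 0.19 for Itgax, 0.02 for Gpnmb, 0.14 for Axl and -0.10 for Lpl. A covariate that itself differs between the housings takes up part of the housing effect, and what part these cells and tissues had in the members' values was not tested.

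**Figure D3:**
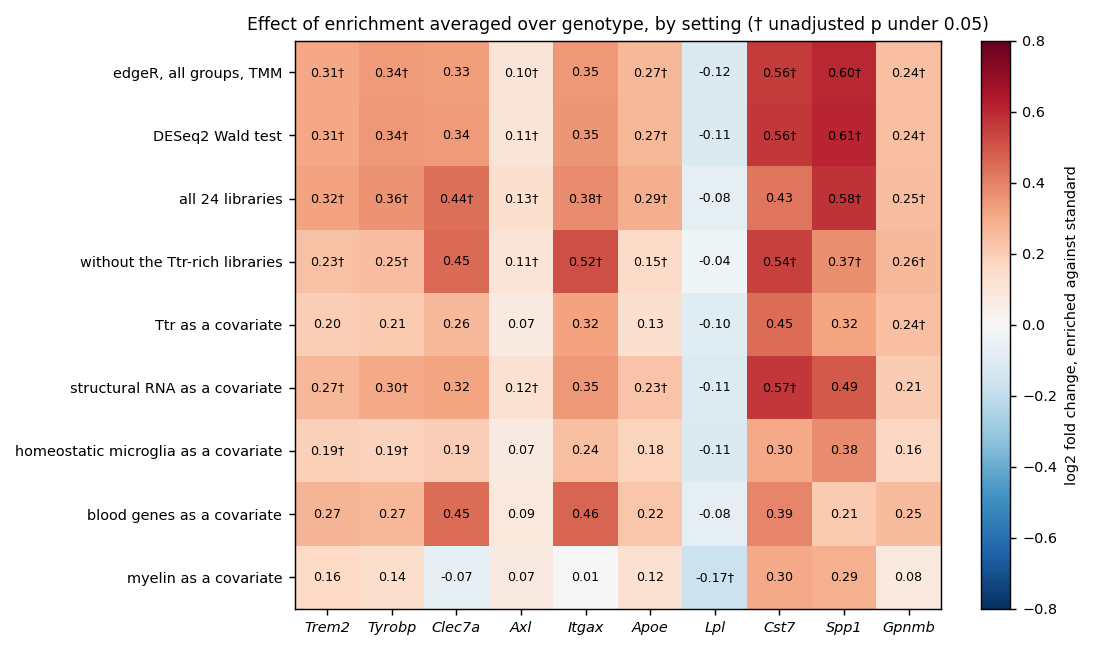
Log2 fold change of each gene with enrichment averaged over genotype (columns) under 9 settings (rows), from the fit reported to fits with a covariate. Daggers mark an unadjusted p under 0.05; the values of Clec7a and Itgax go to -0.07 and 0.01 with the myelin covariate, and Lpl is below 0 throughout.

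In the 3 libraries left out, the members did not shift one way. They lay mostly below or within the kept range in WTSH 4 and WTSH 7, and within or above it in KDSH 6. The structural RNA list summed to 1.33e+07 normalized counts in WTSH 4, 1.36e+07 in WTSH 7 and 2.58e+06 in KDSH 6. The highest kept library, WTSH 2, had 1.14e+06. WTSH 4, whose depth was the lowest of all, was below the kept WTSH range for 6 of the 10 genes, with Trem2 at 733, Tyrobp at 505 and Apoe at 63269 counts, and within it for 4. WTSH 7 was below for 5, among them Itgax at 44.1 and Clec7a at 64.8, within for 4 and above for 1, Cst7. KDSH 6 was below for none, within the kept KDSH range for 6 and above it for 4, with Trem2 at 1235, Tyrobp at 1085, Apoe at 113049 and Cst7 at 115. With all 24 libraries in the fit, 8 members instead of 7 had an unadjusted p under 0.05 over both genotypes, and none was called. Over all genes 2780 of 19817 were higher at that threshold in this fit, against 1973 of 20187 with the 21 libraries.

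The members varied together between mice to different degrees. After the mean of each group was subtracted, Pearson's r over the 21 mice was above 0 in 38 of the 45 pairs, with a median of 0.37, and 13 pairs had an adjusted p under 0.05 (100000 permutations within groups, two-sided, adjusted over the 45 pairs), all positive. By Spearman's rho there were 12. Trem2 and Tyrobp made the tightest pair, with r = 0.94 and rho = 0.92 (both adjusted p = 0.00045 by permutation, the smallest the permutations allow), and r = 0.86 without the mice KDSH 1 and WTEE 10, which were farthest from the median of Trem2. Apoe went with both, at r = 0.86 and rho = 0.71 with Tyrobp and r = 0.83 and rho = 0.60 with Trem2 (permutation adjusted p of r 0.00765 and 0.00999), falling to 0.66 and 0.64 without the 2 farthest mice.

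Clec7a and Itgax formed a second pair, with r = 0.88 and rho = 0.84 (both permutation adjusted p = 0.00225) and r = 0.81 without KDSH 18 and KDSH 24. Cst7 went with both sets, at r = 0.67 with Itgax, 0.65 with Clec7a, 0.65 with Tyrobp and 0.60 with Trem2. Its relation with Clec7a rested on KDSH 18 and KDSH 24, as r was 0.42 without them and rho did not pass (permutation adjusted p = 0.0957). Spp1 went with Tyrobp at r = 0.75, but rho was 0.55 (permutation adjusted p = 0.0578) and r was 0.48 without KDEE 20 and WTEE 10. With Clec7a it passed by both measures, at r = 0.58 and rho = 0.62 (permutation adjusted p = 0.0254 and 0.0314), and r was 0.55 without KDSH 18 and KDSH 24. Itgax and Gpnmb also passed by both, at r = 0.62 and rho = 0.70, with 0.60 without WTSH 19 and KDSH 18. Between the first pair and the second, Tyrobp and Clec7a passed at r = 0.55 and rho = 0.60. Tyrobp and Itgax passed by rho, at 0.58 (permutation adjusted p = 0.0377), but not by r, at 0.42. Trem2 had r = 0.43 with Clec7a and 0.35 with Itgax, neither passing. Without the 2 farthest mice, WTEE 10 among them each time, these values were higher, at 0.62 for Tyrobp and Clec7a, 0.59 for Tyrobp and Itgax, 0.53 for Trem2 and Clec7a and 0.56 for Trem2 and Itgax. Lpl passed with no other member, its r running from -0.16 to 0.45, and Axl passed only with Cst7, at r = 0.49, where rho did not pass (permutation adjusted p = 0.085) and r was 0.38 without WTSH 23 and KDEE 20.

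Which pairs passed depended on single mice. The count of 13 was 6 without WTSH 19, 7 without KDSH 24 and 19 without WTEE 10. Within the 16 Ttr-poor libraries 2 pairs passed, Trem2 and Tyrobp (r = 0.88) and Clec7a and Itgax (r = 0.93), with a median r of 0.41 over all pairs. Among pairs that did not pass there, r was 0.79 for Tyrobp and Cst7 and 0.78 for Clec7a and Gpnmb. It was 0.72 for Itgax and Gpnmb and 0.59 for Clec7a and Spp1, while Tyrobp and Spp1 had 0.19 and Trem2 and Spp1 -0.14. Gpnmb had r = 0.76 with Tyrobp and 0.65 with Trem2, against 0.15 and -0.0014 over the 21 mice. Apoe had r = 0.70 with Tyrobp and 0.59 with Trem2 in the Ttr-poor libraries, against 0.86 and 0.83 over the 21 mice.

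**Figure D4:**
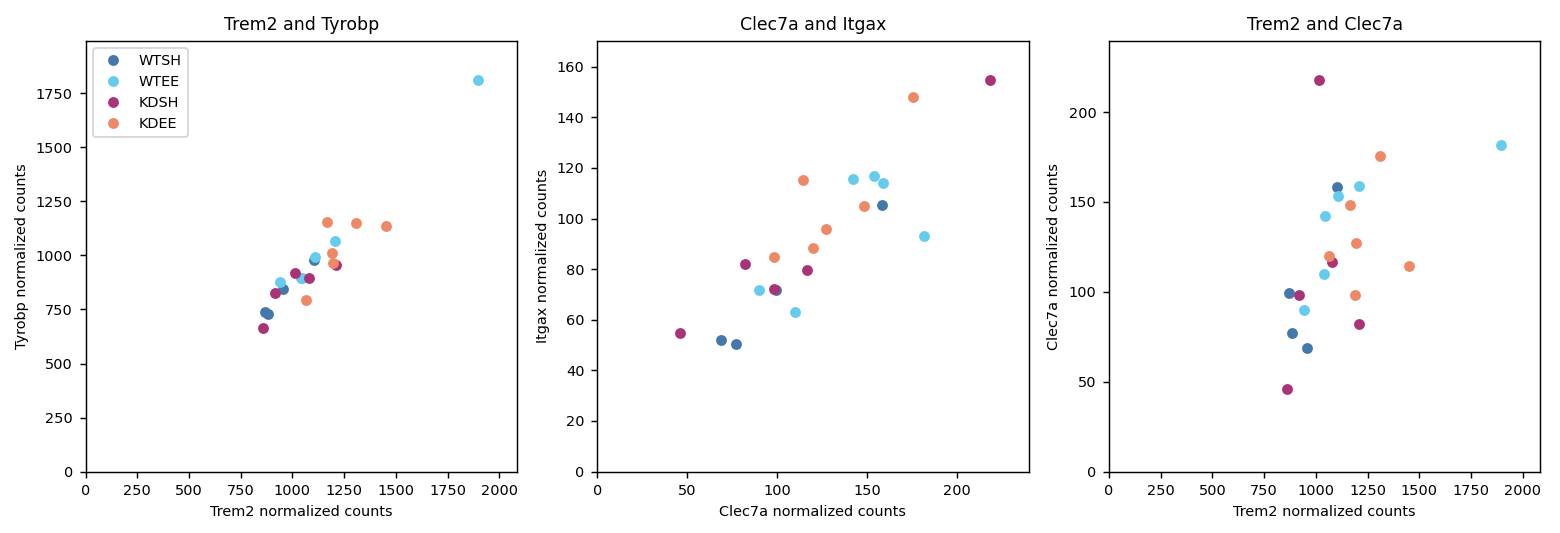
Normalized counts of 3 pairs of genes in the 21 mice, coloured by group, 1 dot a mouse. Trem2 and Tyrobp lie along a line up to WTEE 10 at 1896 and 1813, Clec7a and Itgax along another up to KDSH 18 at 218 and 155, and Trem2 and Clec7a scatter widely.

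**Figure D5:**
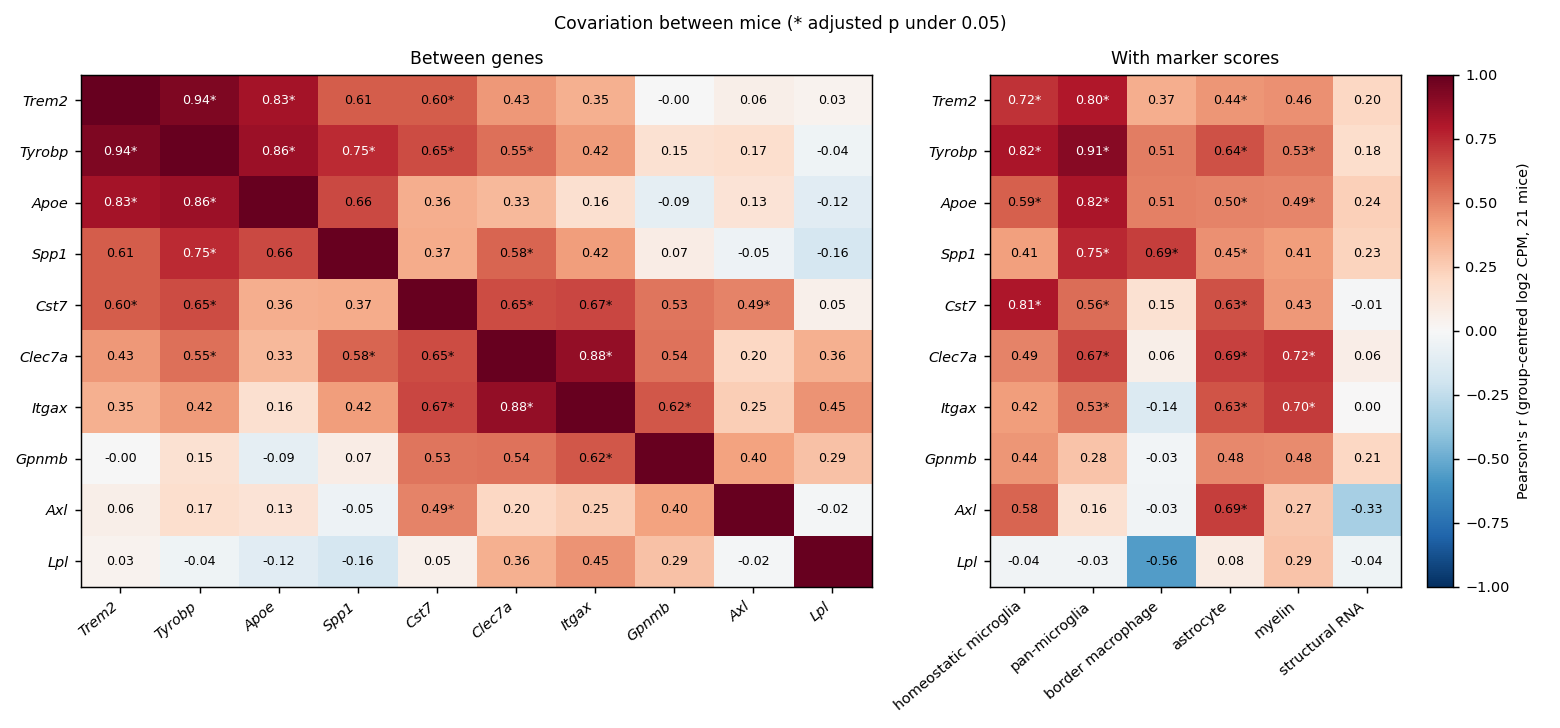
Pearson's r of group-centred log2 CPM over 21 mice, between the 10 genes (left) and with 6 marker scores (right), from blue at -1 to red at 1; asterisks mark a permutation adjusted p under 0.05. Trem2, Tyrobp and Apoe form a warm block at 0.83 to 0.94, Clec7a and Itgax a second at 0.88, and the row of Lpl is near 0 with most genes.

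The members were then set against the mean of 7 marker lists in the same mice, 70 relations in all, of which 25 passed by r and 20 by rho. Without the 5 Ttr-rich libraries 5 passed, namely Tyrobp with the homeostatic (r = 0.89), pan-microglial (0.83) and astrocyte (0.78) scores, Trem2 with the homeostatic score (0.80) and Gpnmb with the pan-microglial score (0.81). The values that follow are over all 21 mice. With the pan-microglial score 7 members passed, led by Tyrobp at r = 0.91, Apoe at 0.82 and Trem2 at 0.80 (permutation adjusted p = 0.00105, 0.00586 and 0.0055). With the homeostatic score 4 passed, Tyrobp at 0.82, Cst7 at 0.81, Trem2 at 0.72 and Apoe at 0.59, so these genes were high in the same mice as the homeostatic ones. With the myelin score 4 passed, and here Clec7a at 0.72 and Itgax at 0.70 came before Tyrobp at 0.53 and Apoe at 0.49 (permutation adjusted p = 0.0179, 0.0212, 0.0287 and 0.0282). This order rested on KDSH 18 and WTSH 19, the mice farthest from the median of the myelin score. Without them r was 0.50 for Clec7a, 0.45 for Itgax, 0.54 for Tyrobp and 0.49 for Apoe. The astrocyte score passed with 8 members by r and 4 by rho, and it was the only list with which Axl passed, at 0.69. Spp1 alone passed with border macrophages, at 0.69. Its r with them was 0.42 without KDEE 12 and WTEE 10, both Ttr-rich. It was 0.44 in the 16 Ttr-poor libraries (permutation adjusted p = 0.429). No member passed with the structural RNA score, which stands for library quality. Group means were subtracted, so these relations cannot show a difference in quality between the housings. The list summed to 15450 to 1143790 normalized counts in WTSH (median 37519) and 159758 to 611187 in WTEE (median 302867). The medians were 122148 in KDSH and 96475 in KDEE. With this list as a covariate, 1 member instead of 5 had an unadjusted p under 0.05 (edgeR) in WTEE against WTSH. The number was 5 instead of 7 over both genotypes and unchanged in KDEE against KDSH. Over all genes tested, 288 instead of 797 were higher at that threshold in WTEE against WTSH. Over both genotypes 820 instead of 1973 were, and in KDEE against KDSH 1085 instead of 1138. With the choroid plexus score 1 member, Apoe, passed over the 21 mice, but that score splits the mice into separate clusters, and within the 16 Ttr-poor libraries no member passed (the lowest permutation adjusted p was 0.941).

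Of 14997 genes with a mean of at least 50 normalized counts, those most like each member over the 21 mice, given as a description with no test, also differed from member to member. For Tyrobp they were the complement genes C1qb (r = 0.97), C1qc and C1qa, and for Trem2 they were Tyrobp, Arpc5 and C1qb. Clec7a had Lyz2, the macrophage lysozyme (0.91), Itgax and Klk6, a protease of oligodendrocytes, and Itgax had the macrophage pore protein gene Mpeg1 (0.89), Serpina3n and Clec7a. Cst7 had the lysosomal Cd68 (0.89), the integrin Itgb2 and Gm32391. Apoe had Ech1 (0.96), Fcgrt and Dnajb2, and by likeness to Trem2 it stood at rank 149. For Spp1 they were Efemp1 (0.94), Anxa2 and Ccdc80, which matrix-making cells express. Nearest genes were not sought without the 5 Ttr-rich libraries. In those the meningeal fibroblast list summed to 10058 to 22192 normalized counts, against 3408 to 6183 in the other 16. What part this had in the neighbours of Spp1 was not tested. Axl had Gldc (0.84), an astrocyte enzyme of glycine breakdown, Msn and Zcchc24. Gpnmb had Hhip (0.79), Rassf4 and Nkain1, and Lpl had Gm26679 (0.80), Gm38192 and Foxn2.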

How the data were processed

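Hippocampal poly(A) RNA of 24 mice was sequenced as read pairs. The authors used Skewer for trimming, STAR 2.5 for alignment to GRCm38 and HTSeq 0.6.1p1 for counting unique alignments per gene without regard to strand, and the deposited values are raw counts per gene symbol, not normalized. Reads on no gene or ambiguous between genes (together 13.1% to 21.3% of a library used, up to 50.2% in one left out) stayed out of library sizes. From these counts, TMM normalization and the quasi-likelihood test of edgeR 4.0.16 were run in R 4.3.3 on 20187 genes that passed its default filter, with the 4 groups in 1 model and 7 contrasts, over the 21 libraries the study used. Displayed values are TMM-normalized counts scaled over all 24 libraries. DESeq2 1.42.0 was an alternative. The scripts were checked on simulated data. Correlations used log2 CPM (prior count 2) less the group mean. Mice were the replicates. Housing was given by cage, with several mice in each, and the cage of each mouse was not given in the sources used here. Differences between cages thus cannot be told apart from housing. Libraries were run 6 to a lane, and the lane of each was not given in the sources used here. The members, the 15 marker lists and the tests were chosen with earlier results of these data known, so no list is independent support. Named genes are the 10 members, the 2 genes of a reported list with the smallest unadjusted p in the housing comparison over both genotypes, any called gene, and the 3 nearest genes of each member. Positions are from GENCODE M21. Counts are read pairs without molecular identifiers, and no floor or interval on them was needed.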

Additional observations from a re-analysis of the deposited data

Results flagged for a closer look

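Within the groups, 7 of 40 sets of values held a mouse far from the others by Dixon's test at 95%, where chance alone marks about 1 in 20. Of these, 5 were the library WTEE 10, which is 1 of the 5 Ttr-rich libraries. It had 1896 normalized counts of Trem2 (the next WTEE mouse had 1207), 1813 of Tyrobp (next 1067), 158727 of Apoe (next 111349) and 1178 of Spp1 (next 413), and it was the lowest of its group for Axl, at 2587 (next 2827). KDSH 18 was far above its group for Itgax, at 155 (next 82.1), and WTSH 19, also Ttr-rich, for Lpl, at 1618 (next 1389). No member had an adjusted p under 0.05 for a difference between the genotypes' effects of enrichment.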

How the results depend on the processing

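No member was called in any of the 7 comparisons under any alternative run (34 for the 4 comparisons of 2 groups, 33 for the other 3), the lowest adjusted p being 0.09 (KDEE against KDSH). Alternatives with myelin or blood genes as a covariate, and without the Ttr-rich libraries, were chosen after seeing the data. Genes called over all those tested came to 2 (WTEE against WTSH), 14 (KDEE against KDSH), 118 (KDEE against WTEE), 20 (interaction) and 41 (housing over both genotypes) with DESeq2. With all 24 libraries they came to 1 (WTEE against WTSH) and 15 (housing over both). Fitting only the groups compared gave 1 in KDEE against KDSH. For housing over both, the structural RNA, homeostatic, myelin and blood covariates each gave 0, and leaving out 1 mouse gave 0 to 6 (0 without WTSH 5 or 19, 6 without WTEE 21); for WTEE against WTSH it gave 0 to 1.

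Members with an unadjusted p under 0.05 in WTEE against WTSH numbered 8 with all 24 libraries, 1 with structural RNA as a covariate, 0 with myelin or blood and 2 with only the groups compared. Leaving out 1 mouse gave 0 (WTSH 2 or 23) to 7, and 2 without WTSH 5 or WTEE 10. Over all genes in WTEE against WTSH, 797 were higher and 525 lower at that threshold in the fit reported. With all 24 libraries 2007 and 1624 were, and with only the groups compared 399 and 162. With structural RNA 288 and 131 were, with myelin 352 and 239 and with blood 539 and 380. In KDEE against KDSH there was 1 member at that threshold with all 24 libraries or with Ttr, homeostatic, myelin or blood genes as a covariate, 4 with only the groups compared, and 1 to 4 leaving out 1 mouse (1 without KDSH 3 or 24 or KDEE 12, 14, 15 or 22, 4 without KDSH 18 or WTEE 10). Over both genotypes there was 1 with Ttr or myelin, 2 with homeostatic and 0 with blood genes as a covariate, and 5 to 9 leaving out 1 mouse. Over all genes in KDEE against KDSH, 1138 were higher and 1207 lower at that threshold in the fit reported. With all 24 libraries 1136 and 898 were, and with only the groups compared 1813 and 2046. With Ttr 302 and 479 were, with the homeostatic list 466 and 677, with myelin 187 and 325 and with blood 701 and 884.

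Member pairs that passed numbered 21 without subtracting group means, 8 with all 24 libraries, 2 without the Ttr-rich libraries and 6 to 19 leaving out 1 mouse. Relations with marker scores numbered 38, without subtraction, 5 without the Ttr-rich libraries and 13 (without WTSH 19) to 30 leaving out 1 mouse, with 16 without KDEE 20.

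Of 1111 recomputed fold changes of members, 12 changed sign. In KDEE against KDSH these were Spp1 at -0.00072 with Ttr, Clec7a at -0.041 and Cst7 at -0.17 with the homeostatic list, and Clec7a at -0.28, Itgax at -0.18, Cst7 at -0.0057 and Gpnmb at -0.034 with myelin. In WTEE against WTSH they were Axl at -0.0081 with myelin, at -0.020 without WTSH 2 and at -0.026 without WTSH 23 (and up to 0.068 without WTSH 19), and Lpl at 0.030 without the Ttr-rich libraries. Over both genotypes it was Clec7a at -0.071 with myelin. The cause was not tested. No paired analysis was possible because no mouse number occurs in more than 1 group. Depth limits Cst7, Clec7a and Itgax most.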
